A study of Schizosaccharomyces pombe with 6 samples.

Results

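The ends of chromosome III of *Schizosaccharomyces pombe*, the fission yeast, were examined. They were taken as the regions in which the most tag-rich position (summit) of a CAGE tag cluster lies under 100 kb from either end. The ends are those of the reference sequence of the chromosome, which is 2452883 bp long. CAGE, cap analysis of gene expression, sequences the capped 5′ ends of RNAs, so a tag cluster marks a transcription start site or a group of neighbouring ones. The rule used position alone, on both strands, and found 1205 of the 108138 clusters of the deposited table. Of these, 524 lay near the left end, where coordinates begin, and 681 near the right end. For comparison, the rest of chromosome III held 18984 clusters and the corresponding ends of chromosomes I and II held 949.

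Whole cells of 2 strains were compared, with 3 libraries each. The wild type was strain Hu0029, of mating type h- with the alleles ade6-M210, leu1-32 and ura4-D18. The double mutant was Hu2000, also h-, which carries fft2::kan and fft3::hph beside the alleles ade6M210, leu1-32 and ura4-D18, so that marker cassettes disrupt the genes for the SNF2-family remodellers Fft2 and Fft3. Both strains carry the ade6, leu1 and ura4 alleles and were grown in YES, a rich medium, at 30 °C with shaking to mid-log phase. The growth protocol speaks of duplicate cultures although each strain has 3 libraries, so libraries of a strain may share a culture and every p-value below measures the spread between libraries only. Each strain is a single line, and no second isolate of the double mutant was compared.

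Unlike the other chromosomes, chromosome III carries the ribosomal DNA arrays at both of its ends, between the telomere repeats and the unique sequence of the arm. The rRNA genes are transcribed by RNA polymerase I into an RNA without a cap, whereas CAGE reads the capped products of RNA polymerase II. Subtelomeric and ribosomal DNA in fission yeast is held in silent chromatin marked by histone H3 lysine 9 methylation, and Fft3 is known for keeping subtelomeric and centromeric chromatin domains separate from euchromatin.

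To show the start sites on which the results turn, the reference sequence (RefSeq, ASM294v3) is given for the start with the largest rise by log2 fold change, the one with the largest fall and the tested start nearest the end on each side, with 100 bp on either side of the summit and written 5′ to 3′ on the transcribed strand. Capitals mark the pyrimidine-purine step at which transcription usually begins, and TATAAA where it occurs from 20 to 60 bp upstream.
SPNCRNA.6700 start, III:81937-82137 (- strand): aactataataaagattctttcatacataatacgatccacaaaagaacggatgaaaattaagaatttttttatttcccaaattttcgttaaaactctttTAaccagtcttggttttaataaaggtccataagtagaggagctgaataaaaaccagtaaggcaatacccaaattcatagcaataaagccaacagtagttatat
SPNCRNA.6679 start, III:34795-34995 (- strand): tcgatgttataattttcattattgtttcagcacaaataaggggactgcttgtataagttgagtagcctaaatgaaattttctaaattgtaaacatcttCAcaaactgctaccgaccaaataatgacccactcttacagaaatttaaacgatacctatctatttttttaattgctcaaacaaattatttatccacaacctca
SPCP20C8.02c start, III:31650-31850 (- strand): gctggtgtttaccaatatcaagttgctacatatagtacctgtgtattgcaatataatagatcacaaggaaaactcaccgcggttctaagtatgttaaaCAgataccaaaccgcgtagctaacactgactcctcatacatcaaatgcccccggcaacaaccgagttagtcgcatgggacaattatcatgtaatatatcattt
ppk38 internal start, III:2393645-2393845 (+ strand): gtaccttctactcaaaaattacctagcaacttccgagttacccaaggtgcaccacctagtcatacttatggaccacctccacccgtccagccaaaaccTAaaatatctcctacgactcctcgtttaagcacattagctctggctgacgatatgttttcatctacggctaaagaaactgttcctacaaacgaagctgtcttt
utp25 start, III:2376126-2376326 (- strand): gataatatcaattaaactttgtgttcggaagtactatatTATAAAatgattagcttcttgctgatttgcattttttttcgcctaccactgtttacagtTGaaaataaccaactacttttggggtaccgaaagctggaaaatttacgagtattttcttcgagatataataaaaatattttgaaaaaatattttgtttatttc
SPNCRNA.1299 start, III:2448716-2448916 (+ strand): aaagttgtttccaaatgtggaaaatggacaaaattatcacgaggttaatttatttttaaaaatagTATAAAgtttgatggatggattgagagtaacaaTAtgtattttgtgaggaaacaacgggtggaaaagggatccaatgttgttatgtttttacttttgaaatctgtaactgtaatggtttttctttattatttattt
Every one of these 6 starts had the step 1 bp upstream of the summit, and so had 50 of the 51 promoter clusters near these ends with a mean of at least 5 RPM (98.04%; RPM, the unit of all levels here, is tags per 1000000 tags of the library), against 23.1% of all positions of the chromosome. TATAAA, searched on the transcribed strand alone, was present in the utp25 and SPNCRNA.1299 sequences. It was found at 7 of the 148 starts tested here (4.73%), against 5.28% of the 11250 starts tested in the whole series.

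The ribosomal DNA itself gave almost no tags. At the left end the annotation holds 7 rRNA genes between bases 1 and 23130, and no tag cluster lay among them: the first cluster was 31147 bp from the end. At the right end 4 rRNA genes are annotated from base 2440994 to the last base. No cluster lay inside one of these genes, 2 lay beside the 5.8S gene, and 10 lay in the spacer between the large-subunit gene (to 2447197) and the outermost small-subunit gene (from 2451883). One spacer start reached 1 RPM, that of SPNCRNA.1299, a non-coding RNA whose summit at 2448816 is 4068 bp from the end. Its level was 1.15, 0.631 and 1.42 RPM in wild-type libraries 1 to 3 and 1.20, 2.03 and 1.76 RPM in double-mutant libraries 1 to 3. The groups overlapped, and the difference did not pass the test (log2 fold change 0.48 ± 0.24 SE, limma adjusted p = 0.139). The other 14 clusters under 20 kb from the right end stayed under 0.5 RPM in every library. The outermost small-subunit genes (1-1390 and 2451883-2452883) reach the edges of the reference sequence and are shorter than others, such as 10419-12260. Distances are thus counted from edges that lie within the ribosomal DNA. Equal distances need not be like positions at the left and right ends, or at the ends of the other chromosomes. How the authors' processing treated reads that map to several repeat units is not given in the sources used here, so tags of the arrays may be undercounted.

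Library totals ran from 12681900 to 23242898 tags. Tags inside the coding parts of the deleted genes amounted to 5.11 ± 1.02 RPM in the wild type and 0.12 ± 0.046 RPM in the mutant for fft2, and to 2.56 ± 0.952 and 0.414 ± 0.177 RPM for fft3 (mean ± SD, n = 3 per group), which matches the labels. Over the tested clusters near the chromosome III ends, Pearson's r of log2 levels was 0.968 to 0.993 for pairs of wild-type libraries, 0.987 to 0.991 for pairs of mutant libraries and 0.886 to 0.903 for mixed pairs (across clusters, which are not independent replicates). Wild-type library 2 stood apart. In it 44 genes were over 4 times their level in both other wild-type libraries, against 1 to 7 such genes in each other library, and so were 3 of the clusters described here.

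A cluster was tested when its mean over the 6 libraries was at least 1 RPM, which 59 clusters of the left end and 89 of the right end reached. The test was limma on log2(RPM + 0.5), fitted over all such clusters of the series, and a cluster was called at an adjusted p under 0.05. Log2 fold changes (mutant over wild type) include the added 0.5 and so come out too small where levels are low, while folds are ratios of mean RPM. Near the left end 16 clusters rose and 12 fell. Near the right end 38 rose and 13 fell. Over all 11250 tested clusters of the series, 36.9% rose and 9.36% fell, so the 54 risers among the 148 tested clusters are close to the background. The 25 that fell are 16.9% of those tested, above the background of 9.36%. This share was 11.5% against 6.85% with the replicate number as a block, and lowest without mutant library 3 (13 clusters, 8.78% against 6.66%) and wild-type library 3 (14 clusters, 9.46% against 7.74%). The median log2 fold change was 0.31 near the chromosome III ends and 0.27 over all tested clusters. A filter on the mean passes a cluster that is high in one strain only, so these counts say nothing of the clusters below it. Among all 1205 clusters, 356 had no tag in the wild type (29.5%), against 33.3% of the whole series.

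**Figure D1:**
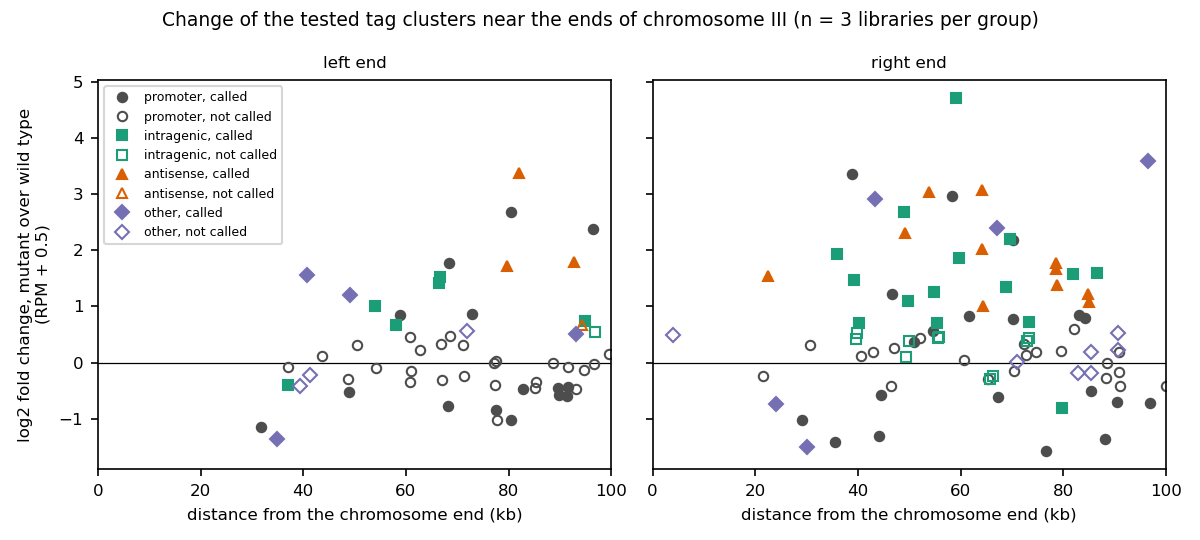
Log2 fold change (double mutant over wild type, RPM + 0.5) of each tested cluster against its distance from the chromosome end in kb, for the left end (59 clusters) and the right end (89 clusters). Symbols give the class and filled symbols passed the test (n = 3 libraries per group). Antisense clusters (triangles) lie above 0 throughout, promoter clusters (circles) on both sides of 0, and the few left-end clusters under 50 kb include falls of -1.14 and -1.36.

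By class the ends followed the rest of the genome in part. Promoter clusters, those within 500 bp upstream of a coding gene's annotated start or downstream of it as far as 100 bp or the start codon, rose in 15 and fell in 20 of 82 cases. The background was 21.9% higher and 13.0% lower, and the medians were -0.08 here and 0.08 over all promoters. Intragenic clusters, on the gene's strand inside it, rose in 19 and fell in 2 of 32 cases (background 48.4% and 3.08%). Antisense clusters rose in 14 of 15 cases and fell in 0 (background 75.3% and 3.55%), with a median of 1.71 here and 1.74 over all antisense clusters. The remaining clusters, mostly starts of non-coding RNAs, rose in 6 and fell in 3 of 19 cases (background 33.3% and 15.8%).

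The 10 kb bins show where along the ends these changes lie. Tags outside promoters rose in 12 of the 16 tested bins of both ends and fell in 0 (by limma; DESeq2 and edgeR on the recovered tags called 2 lower), against 85.3% and 1.4% of all such bins of the series. The first 20 kb of the left end that hold clusters, from 30 to 50 kb, did not follow. Tags outside promoters there amounted to 112 ± 9.09 RPM in the wild type and 102 ± 12.1 RPM in the mutant, and neither bin passed the test (log2 fold change -0.30 and -0.04, adjusted p = 0.0968 and 0.811). Most of this level came from the starts of SPNCRNA.1097 and SPNCRNA.1096 and one inside SPCC1884.01, with 100.06 ± 8.70 and 82.0 ± 8.74 RPM together. All other starts outside promoters there amounted to 12.0 ± 2.19 RPM in the wild type and 20.3 ± 4.16 RPM in the mutant, a fold of 1.69 without overlap of the groups. Farther in, all 5 left-end bins from 50 to 100 kb rose, with a sum of 39.02 ± 0.528 RPM in the wild type and 89.7 ± 6.56 RPM in the mutant and log2 fold changes from 0.47 to 2.34. Set as a ratio within each library, the level under 50 kb against that from 50 to 100 kb was lower in the mutant, by -1.33 on the log2 scale, with no overlap of the groups (exact two-sided permutation test, p = 0.1, the smallest that 3 libraries against 3 allow). Without those 3 starts the ratio was -0.44 (p = 0.2 in the same exact permutation test). This split was chosen after the bins were seen, so it describes them.

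At the right end tags outside promoters rose from 20 to 30 kb (5.40 ± 0.981 to 11.8 ± 2.73 RPM, log2 fold change 1.05) and in each bin from 40 kb to 100 kb, with the largest log2 fold change, 2.20, from 50 to 60 kb (11.9 ± 0.879 to 56.5 ± 2.31 RPM). The bin from 30 to 40 kb did not pass (6.95 ± 2.23 to 11.8 ± 4.66 RPM, adjusted p = 0.0633). The ends of chromosomes I and II, which lack ribosomal DNA, had far fewer tags from 30 to 50 kb (2.14 ± 0.545 RPM in the wild type over both chromosomes), and 3 of 3 tested bins there rose.

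**Figure D2:**
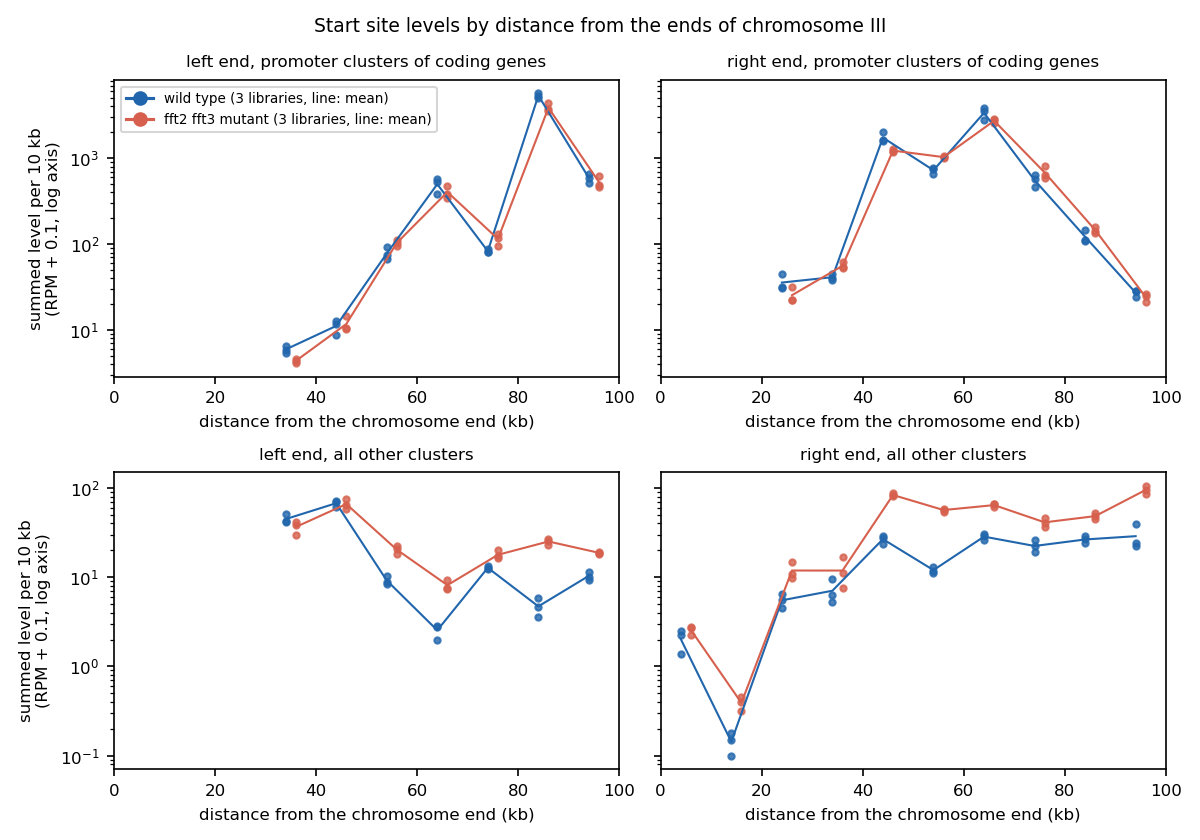
Summed level per 10 kb (RPM + 0.1, log axis) against distance from the chromosome end in kb, with promoter clusters of coding genes above and all other clusters below. Points are the 3 libraries of each strain and lines join their means. Outside promoters the strains lie close together from 30 to 50 kb of the left end and separate in all 5 bins from 50 to 100 kb, while promoter levels cross several times.

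Summed over each end, promoter tags were fewer and antisense tags more numerous in the mutant, with few promoters carrying most of the promoter sums. Promoter levels at the left end were 6358, 6757 and 6748 RPM in the wild type and 5604, 4932 and 4556 RPM in the mutant, a fold of 0.76. At the right end they were 7056, 6137 and 6659 RPM in the wild type and 6107, 5918 and 5724 RPM in the mutant, a fold of 0.894. The groups did not overlap at either end, while in the rest of chromosome III promoter tags had a fold of 1.05. Relative to the rest of the chromosome the promoter level differed between mutant and wild type by -0.48 (left) and -0.24 (right) on the log2 scale (exact permutation test, p = 0.1 for each, the smallest possible). Ribosomal protein promoters made up most of these tags at the left end, as described below. Without rpl35 and rpl902 the left-end sums were 1433 ± 159 RPM in the wild type and 1295 ± 133 RPM in the mutant. That is a fold of 0.904, and the groups overlapped. At the right end the lower sum rested on hom2 (aspartate semialdehyde dehydrogenase) and rpp103 (a ribosomal stalk protein). Without hom2, which did not pass the test, the fold was 0.981 and the groups overlapped, and without both the sum was 2102 ± 89.3 RPM in the wild type and 2443 ± 112 RPM in the mutant. Bin by bin, promoter tags rose in 4 and fell in 4 of 15 tested bins (24.7% and 13.4% of all such bins of the series), and edgeR and DESeq2 called 0 higher and 8 lower. At the ends of chromosomes I and II promoter tags were more numerous in the mutant, with 1194 ± 257 RPM in the wild type and 4486 ± 1418 RPM in the mutant. Nearly all of that difference lay in the bin from 90 to 100 kb of the right end of chromosome II (545 ± 43.8 and 3748 ± 1375 RPM), and without it the sums were 649 ± 228 and 738 ± 51.9 RPM, which overlapped. The difference of chromosome III ends from these was -2.15 on the log2 scale with that bin (exact permutation test, p = 0.1, the smallest possible) and -0.51 without it (exact permutation test, p = 0.2), both added after the sums were seen.

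Antisense tags went from 8.62 ± 2.14 to 34.4 ± 3.41 RPM at the left end (3.99-fold) and from 23.5 ± 2.20 to 93.3 ± 10.8 RPM at the right end (3.97-fold). In the rest of chromosome III the fold was 3.28. Relative to that, the change at the ends was larger by 0.31 (left) and 0.27 (right) on the log2 scale. The groups overlapped at each end (exact permutation test, p = 0.2 for each). The smallest p that this test allows is 0.1, so it cannot decide whether the ends differ. At the left end the relative value turned to -0.35 without 1 cluster, the antisense start in SPCC613.01, and to -0.38 within 50 kb of the end. Intragenic tags had a fold of 1.53 at the left end and 2.12 at the right end, beside 1.97 in the rest of chromosome III. The remaining clusters differed between the ends: at the right end they went from 57.3 ± 4.36 to 157 ± 11.9 RPM (2.73-fold), whereas at the left end 102 ± 9.21 and 95.8 ± 12.2 RPM overlapped. The start upstream of ecl1, described below, gave most of the right-end difference, and without it the levels there were 51.5 ± 3.45 and 88.3 ± 5.46 RPM (1.72-fold). Clusters of this class in the rest of chromosome III had a fold of 1.48.

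Nearest the left end, the first transcribed genes included falls, rises and values that did not pass the test. SPCP20C8.02c, an uncharacterized coding gene (III:30561-31520, - strand), has its main start at 31750 inside an annotated long terminal repeat, a remnant of a retrotransposon. This start gave 1.20, 2.52 and 2.07 RPM in the wild type and 0.430, 0.690 and 0.604 RPM in the mutant. All wild-type libraries were above all mutant libraries (log2 fold change -1.14 ± 0.24, adjusted p = 0.00386). The start of SPNCRNA.6679, a non-coding RNA 34894 bp from the end, gave 2.74, 1.73 and 2.33 RPM in the wild type and 0.559, 0.646 and 0.503 RPM in the mutant, again without overlap (-1.36 ± 0.18, adjusted p = 0.000332). In SPCC1884.01, an uncharacterized coding gene, the start at the annotated 5′ end did not pass (3.82 ± 0.159 and 3.601 ± 0.357 RPM, adjusted p = 0.704), while one 149 bp inside it fell from 17.6 ± 1.18 to 13.2 ± 0.953 RPM. The non-coding RNA SPNCRNA.6682 went the other way, with a gene level of 2.34, 1.66 and 1.32 RPM in the wild type and 6.58, 8.88 and 4.08 RPM in the mutant (1.59 ± 0.29, adjusted p = 0.00448). The coding genes SPCP20C8.01c, new22 and SPCC1884.01 to nic1, a nickel and cobalt transporter gene at 43542 bp, complete the row: the first pair was too low to test and nic1 had 6.44 ± 2.08 and 6.92 ± 2.04 RPM, with a log2 fold change of 0.11 whose sign depended on the scaling and on single libraries (-0.10 without mutant library 2, -0.16 without wild-type library 2). Beyond it SPCC757.02c, annotated as an epimerase gene at 46911 bp, was below the filter, with 1 tag over the wild-type libraries and 1.29, 0.948 and 1.41 RPM in the mutant, a ratio of 63.4 with a 95% counting interval from 11.1 to 2534. A start at 49056 outside any promoter window rose from 0.897, 0.237 and 0.455 RPM to 1.81, 1.81 and 1.71 RPM (1.19 ± 0.23, adjusted p = 0.00298).

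Nearest the right end, the uncharacterized coding gene SPCC569.01c (18192 bp) gave no tag. SPCC569.02c, also uncharacterized, at 20271 bp, was below the filter, with 3 tags over the wild-type libraries and 0.731, 0.862 and 1.06 RPM in the mutant, a ratio of 15.3 with a 95% counting interval from 4.99 to 76.4. SPCC569.03, an uncharacterized coding gene at 21432 bp, had an antisense start at 2430463 that rose from 2.04, 1.66 and 1.77 RPM to 4.604, 9.05 and 5.74 RPM (1.54 ± 0.24, adjusted p = 0.000751). The gene's own start gave 20.2, 19.7 and 17.4 RPM in the wild type and 16.4, 18.9 and 13.4 RPM in the mutant, which overlapped (adjusted p = 0.268). At 29099 bp the start of SPCC569.05c, annotated as a spermidine family transporter gene, fell from 15.6 ± 6.74 to 7.39 ± 3.03 RPM (-1.02 ± 0.35, adjusted p = 0.0399). That call was lost with the replicate number as a block and without wild-type library 1 or 3 or mutant library 1 or 3, and the summed promoter level of the gene did not pass (adjusted p = 0.0692). The neighbouring SPCC569.06, uncharacterized, had 31.9 ± 2.25 and 39.9 ± 1.26 RPM (adjusted p = 0.071). SPNCRNA.1297 gave 4.28, 1.18 and 3.04 RPM in the wild type and 0.430, 1.29 and 0.252 RPM in the mutant. Its groups overlapped through wild-type library 2 although its fall passed the test (-1.50 ± 0.43, adjusted p = 0.0343 in the fit over genes), and the call was lost with the replicate block and without wild-type library 1 or 3 or mutant library 1 or 3.

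The start with the largest log2 fold change of either end, on the scale of RPM + 0.5, lay inside ppk38, which encodes an Ark1/Prk1 family protein kinase, 59139 bp from the right end. This start, 1526 bp into the gene at 2393745 on its own strand, gave 0.349, 0.473 and 0.455 RPM in the wild type and 26.7, 23.7 and 21.1 RPM in the mutant (56.0-fold, log2 fold change 4.71 ± 0.16, adjusted p = 7.09e-07). The mutant libraries all lay above 20 RPM and the wild-type libraries all under 0.5 RPM. The gene's annotated start did not pass (10.9, 7.81 and 9.97 RPM in the wild type, 9.98, 9.40 and 9.82 RPM in the mutant, adjusted p = 0.868), so in the mutant the internal start gave more tags than the promoter. The next gene downstream on the same strand, mug170, an arrestin family adaptor gene, rose too. Its promoter level was 0.0498, 0 and 0.101 RPM in the wild type, 3 tags in all, and 4.13, 3.79 and 3.68 RPM in the mutant, a ratio of 67.9 with a 95% counting interval from 23.0 to 331. By ratio, this start and others with 1 to 3 wild-type tags thus lay above ppk38, with wide intervals.

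Upstream of ecl1, a gene named for extending chronological lifespan, a start at 2356314 lay 527 bp before the annotated 5′ end, just outside the promoter window. It gave 3.19, 10.2 and 4.25 RPM in the wild type and 76.8, 67.8 and 60.5 RPM in the mutant (3.58 ± 0.35, adjusted p = 4.07e-05). Wild-type library 2 was the highest of its group, and without it the log2 fold change was 4.03. The summed promoter of ecl1 itself fell from 2.79, 2.13 and 2.58 RPM to 1.12, 1.42 and 0.604 RPM (-0.99 ± 0.23, adjusted p = 0.0137; 0.051 without wild-type library 1).

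SPCC569.09, an uncharacterized gene 38629 bp from the right end, rose from a start 299 bp upstream of its annotated 5′ end and inside the end of ade5. That start gave 0.0996, 3.39 and 0.253 RPM in the wild type and 11.5, 14.9 and 9.57 RPM in the mutant (3.35 ± 0.62, adjusted p = 0.0021). Wild-type library 2 held most of the wild-type tags: without it the log2 fold change was 4.19, and DESeq2 on the recovered tags did not call the cluster (adjusted p = 0.0582). In apl4, for the gamma subunit of the AP-1 adaptor, a start 1859 bp inside the gene rose from 1.30, 1.18 and 1.47 RPM to 12.1, 11.6 and 9.82 RPM (2.68 ± 0.16, adjusted p = 3.06e-06). The promoter of apl4 changed far less, from 225 ± 11.2 to 290.2 ± 2.55 RPM (0.37 ± 0.10, adjusted p = 0.0218), and lost its call under TMM and median-of-ratios scaling, under edgeR and DESeq2, with the replicate block, and without wild-type library 2 or 3 or mutant library 2 or 3.

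**Figure D3:**
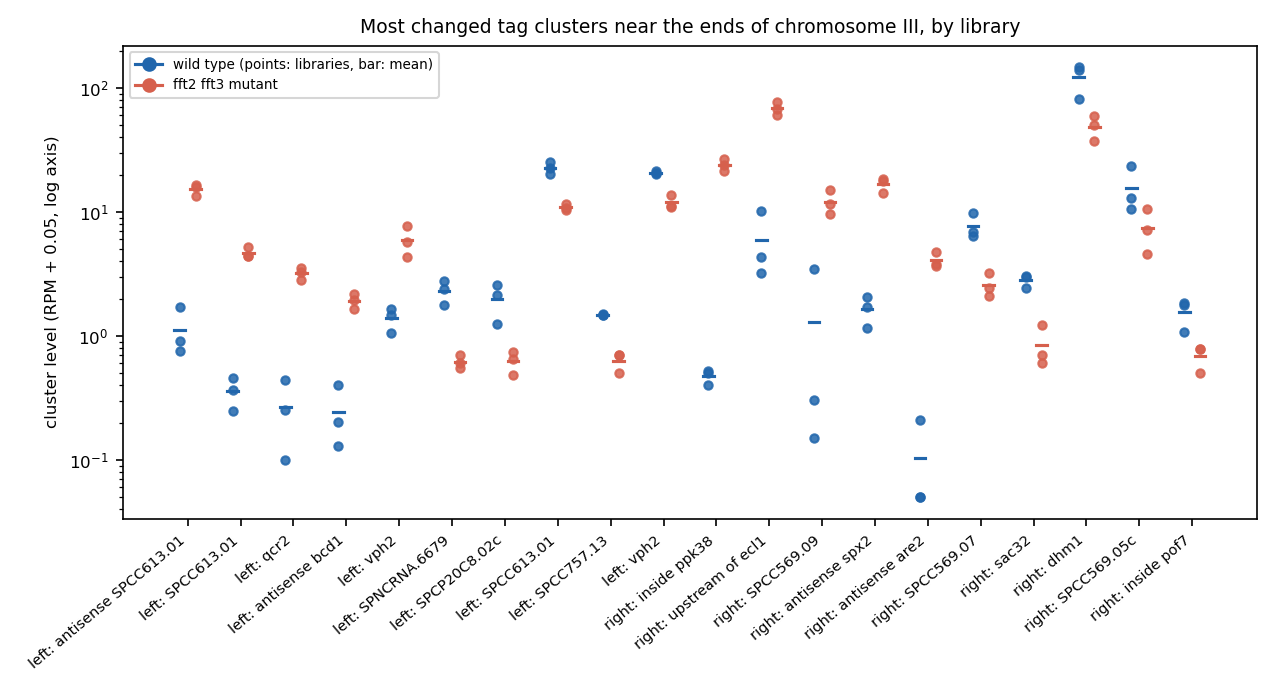
Level in each library (RPM + 0.05, log axis) of the 5 most raised and 5 most lowered clusters of each end that passed the test without overlap, from the left end to the right end. Points are libraries, bars are means of 3, and labels give the end and the gene, with antisense or inside where the start is not in the gene's promoter window. The start inside ppk38 goes from under 0.5 RPM in every wild-type library to above 20 RPM in every mutant library.

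Antisense starts carried much of the remaining rise. In SPCC613.01, a transporter gene 80377 bp from the left end, the start of the antisense RNA SPNCRNA.6700 at 82037 gave 1.64, 0.710 and 0.860 RPM in the wild type and 16.6, 15.9 and 13.5 RPM in the mutant (14.3-fold, 3.37 ± 0.23, adjusted p = 5.51e-06). In bcd1, for a snoRNA biogenesis protein, an antisense start rose from 0.349, 0.0789 and 0.152 RPM to 1.89, 1.59 and 2.11 RPM (1.79 ± 0.19). Near the right end, the antisense start at 2388791 in spx2, an SPX/EXS domain gene, rose from 1.99, 1.66 and 1.11 RPM to 14.3, 17.7 and 18.5 RPM (3.07 ± 0.20, adjusted p = 4.59e-06). These 3 starts were named for the largest changes among called clusters without overlap, so the separation of their libraries follows from that choice. The promoter of spx2 rose as well (6.82 ± 0.583 to 12.7 ± 1.46 RPM, 0.85 ± 0.15, adjusted p = 0.00396), whereas the summed promoter level of bcd1 did not pass (adjusted p = 0.365). Opposite are2, for a sterol acyltransferase, the start of SPNCRNA.7746 gave 2 tags over the wild-type libraries and 3.61, 4.70 and 3.78 RPM in the mutant, a ratio of 106 with a 95% counting interval from 29.1 to 881.

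Of the 9 genes with a raised antisense start, 4 had a promoter cluster that fell (SPCC613.01, SPCC757.13, bcd1 and utp25) and 4 had one that rose. By summed promoter level 2 of the 9 fell, SPCC613.01 and utp25, and 3 rose. Of all tested promoter clusters of the series 13.0% fell and 21.9% rose, and of all tested coding genes 9.65% fell and 16.9% rose. The genes differ in their number of tested promoter clusters, with 5 in SPCC757.13, 3 in bcd1 and 1 in utp25. Counts of genes with any such cluster are thus not on the scale of the cluster shares. A raised start also faced dhm1. SPNCRNA.7751 starts at 2409634, beyond the 3′ end of dhm1 and towards it. It gave 4.04, 3.15 and 3.95 RPM in the wild type and 31.5, 31.3 and 30.2 RPM in the mutant (2.91 ± 0.15, adjusted p = 1.64e-06). The promoter of dhm1, an ankyrin repeat gene, fell from 148, 140.0 and 81.4 RPM to 37.1, 59.3 and 49.9 RPM (-1.30 ± 0.26, adjusted p = 0.00307). In utp25, for a protein of the U3 complex that processes ribosomal RNA, an antisense start at 2374151 rose from 4.78, 3.47 and 4.05 RPM to 8.82, 13.9 and 12.2 RPM (1.39 ± 0.20). The utp25 start fell from 16.0, 4.97 and 11.8 RPM to 2.54, 5.04 and 1.96 RPM (-1.58 ± 0.43, adjusted p = 0.0161). Here wild-type library 2 lay just under mutant library 2. In the fit over genes the fall of utp25 (adjusted p = 0.0302) was lost with the replicate block and without wild-type library 1 or 3 or mutant library 1 or 3. Whether the start on one strand bears on the promoter on the other was not tested.

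Several genes held a second start on the same strand that rose while the main one fell or did not pass. They were picked for display after their values were seen. The main start of SPCC613.01 fell from 22.6, 20.2 and 24.99 RPM to 10.2, 11.5 and 10.8 RPM (-1.02 ± 0.14, adjusted p = 0.000367), while a start at 80544, 166 bp past the annotated 5′ end, rose from 0.199, 0.315 and 0.405 RPM to 4.35, 5.17 and 4.38 RPM (2.67 ± 0.17). Summed over both, the gene fell less (-0.53, adjusted p = 0.0197), a call lost with the replicate block and without wild-type library 1 or 3 or mutant library 3. The main start of vph2, for a V-ATPase assembly protein, fell from 20.6 ± 0.646 to 11.9 ± 1.49 RPM and a start 124 bp past the annotated 5′ end rose from 1.34 ± 0.299 to 5.84 ± 1.67 RPM, so the gene's sum did not pass (-0.22, adjusted p = 0.343). In SPCC569.07, an aromatic aminotransferase gene, the main start fell from 7.63 ± 1.86 to 2.54 ± 0.582 RPM (-1.41 ± 0.22) and a start 250 bp inside rose from 0.278 ± 0.189 to 2.49 ± 0.922 RPM (1.92 ± 0.28). In qcr2, for a subunit of respiratory complex III, the main start had 319 ± 45.8 and 316 ± 56.4 RPM and did not pass, and a start 237 bp upstream rose from 0.0498, 0.394 and 0.202 RPM to 2.80, 3.45 and 3.22 RPM (2.38 ± 0.21). The second starts were picked among those called higher, so the lack of overlap between the strains in them follows largely from the choice. Not all secondary starts rose: one 502 bp past the annotated 5′ end of sac32, a nuclear export factor gene, fell from 2.77 ± 0.342 to 0.792 ± 0.325 RPM (-1.36 ± 0.21), one in SPCC757.13, a dipeptide transporter gene, fell by 0.84 on the log2 scale, and one 289 bp inside pof7, an F-box gene, fell by 0.81 with a call that was lost without wild-type library 1 or 3 or mutant library 3.

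**Figure D4:**
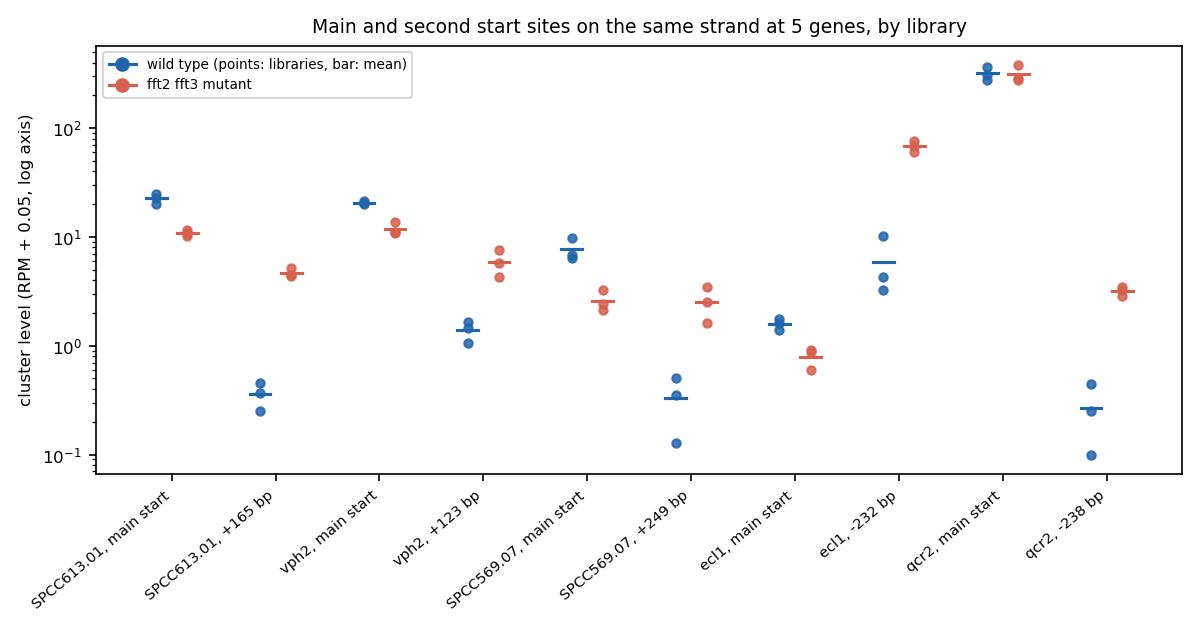
Level in each library (RPM + 0.05, log axis) of the main start and of a second start on the same strand in 5 genes, with the distance of the second from the main start in bp (positive is downstream). Points are libraries and bars are means of 3. In SPCC613.01, vph2, SPCC569.07 and ecl1 the main start is lower and the second higher in the mutant, and in qcr2 only the second passed the test.

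Of 64 coding genes with an annotated start in these ends, 56 passed the filter on summed promoter level. Near the left end 2 rose and 5 fell of 25, and near the right end 7 rose and 6 fell of 31, against 16.9% and 9.65% of all tested coding genes. Their medians were -0.19 and 0.18, and that of all coding genes was 0.08. At the left end, ctt1, the catalase gene, had 27.5, 44.1 and 21.6 RPM in the wild type and 48.2, 60.2 and 50.9 RPM in the mutant (0.82 ± 0.25, adjusted p = 0.0375). Its call was lost under both other scalings, under edgeR and DESeq2, and without any library other than wild-type library 2. The other riser, aah1, for a GPI-anchored glycosyl hydrolase of the cell surface, had 51.3, 40.6 and 56.1 RPM in the wild type and 109, 92.2 and 70.9 RPM in the mutant (0.86 ± 0.19, adjusted p = 0.0107). At the right end mug9, a gene of unknown function, rose from 9.64 ± 0.242 to 18.04 ± 0.932 RPM (0.87 ± 0.13), and pal1 rose from 460.0 ± 35.9 to 682 ± 20.5 RPM (0.57 ± 0.11), its main start without a call under edgeR or DESeq2. SPCC70.08c, for a methyltransferase, rose from 5.06 ± 1.63 to 8.77 ± 0.803 RPM (adjusted p = 0.0306), a call lost under every other scaling and tool, with the replicate block, and without any library other than wild-type library 2.

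Grouped by the words of their annotation, the genes with roles in ribosomes and translation fell most often, as they did in the series at large. Of 5 such genes 3 fell and 0 rose (median -0.45), beside 118 lower and 16 higher of 432 in the whole series (median -0.29). The ribosomal protein gene rpl35 had 3695, 4379 and 4034 RPM in the wild type and 3330.2, 2819 and 2725 RPM in the mutant (-0.45 ± 0.13, adjusted p = 0.0301). It is the highest promoter of the left end. Its call was lost with the replicate block and without wild-type library 2 or 3 or mutant library 2 or 3. Its divergent neighbour rpl902 fell from 1152 ± 26.3 to 778 ± 102 RPM (-0.57 ± 0.13, adjusted p = 0.00905), and rpp103, for a protein of the ribosomal stalk, fell from 1208 ± 175 to 803 ± 50.6 RPM (-0.58 ± 0.13, adjusted p = 0.0115). Both have sister genes elsewhere in the genome, but the first 25 bases from each of the 148 tested starts occur once in it. None of the 3 genes overlapped between the strains.

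Transporter genes fell in 2 and rose in 0 of 6 cases (median -0.50), beside 31 lower and 26 higher of 192 in the whole series (median -0.03). These were SPCC613.01, above, and its neighbour SPCC613.02, which went from 67.9 ± 11.2 to 48.8 ± 3.43 RPM (-0.46 ± 0.15, adjusted p = 0.0464) and lost its call with the replicate block and without any library other than wild-type library 3. In SPCC757.13 a start at 77786 had 22.0 RPM in wild-type library 2 alone and 0.149 to 0.860 RPM in the other 5 libraries. Of 4 oxidoreductase genes, ctt1 rose and hom2, for aspartate semialdehyde dehydrogenase and the highest promoter of the right end, did not pass (3308 ± 543 and 2671 ± 121 RPM, adjusted p = 0.155). The third, cox14, for cytochrome oxidase assembly, had 205, 61.0 and 198 RPM in the wild type and 106, 200.02 and 58.7 RPM in the mutant, a spread within each strain far wider than the difference between them. Of 4 kinase and phosphatase genes, tmp1, for thymidylate kinase, fell from 24.0 ± 2.999 to 16.9 ± 0.840 RPM (-0.49 ± 0.14, adjusted p = 0.0291; lost with the replicate block and without wild-type library 1 or 3 or mutant library 2 or 3). Among 11 tested genes of unknown function 3 rose and 1 fell, the 1 transcription factor gene did not pass, and no wtf gene, the spore-killer family, lies in these ends. In the whole series 109 rose and 47 fell of 511 tested genes of unknown function. For oxidoreductase genes these counts were 63 and 23 of 225, and for kinase and phosphatase genes 50 and 20 of 299.

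Non-coding RNA genes numbered 111, of which 16 passed the filter, 6 rose and 2 fell, against 62.6% and 6.24% of all tested non-coding RNA genes. Beside SPNCRNA.6700, SPNCRNA.6682, SPNCRNA.7746 and SPNCRNA.7751, the risers were SPNCRNA.1294 and SPNCRNA.7739, the latter with 0.847, 1.42 and 0.759 RPM in the wild type and 6.11, 8.58 and 7.50 RPM in the mutant (2.40 ± 0.22, adjusted p = 9.33e-05). In the wild type the most abundant were SPNCRNA.1097 and SPNCRNA.1096, at 41423 and 39318 bp from the left end, which did not pass. In the mutant SPNCRNA.7751 and SPNCRNA.519 had more tags than SPNCRNA.1096.

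Genes for factors of silencing, telomeres and ribosomal DNA, which lie throughout the genome, changed in 8 of 46 tested cases (48 listed, 47 matched, all but pcu4). The 4 higher and 4 lower genes stand beside 24.3% and 9.11% of all 5608 tested genes, and the median was 0.10 against 0.13. That background includes non-coding RNA genes, whereas the matched genes of the list are all coding. Of all tested coding genes, the closer comparison, 16.9% rose and 9.65% fell, with a median of 0.08. The largest change in the list was in clr3, for the histone deacetylase of the SHREC silencing complex. This gene gave 26.2, 18.7 and 25.1 RPM in the wild type and 8.48, 6.29 and 6.34 RPM in the mutant (-1.66 ± 0.19, adjusted p = 0.000368). The telomere protein gene ccq1 rose from 20.1, 25.9 and 25.3 RPM to 44.2, 50.7 and 45.1 RPM (0.97 ± 0.14, adjusted p = 0.00158). The nts1 gene, also of a histone deacetylase complex, fell from 25.3 ± 2.54 to 15.1 ± 2.41 RPM (-0.73 ± 0.16). Weaker calls were higher dcr1 (Dicer), pot1 and leo1 and lower clr2 and rik1, with log2 fold changes between -0.69 and 0.68, and all 5 were lost with the replicate block.

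Just inside and just outside the 100 kb limit, the levels were as follows. At the left end the last cluster inside, the promoter of meu23, had 3.14 ± 0.390 and 3.55 ± 0.243 RPM, and the first outside, an antisense start, had 0.146 ± 0.0935 and 3.61 ± 0.212 RPM. At the right end both clusters belong to the promoter of put1, the proline oxidase gene. The inner one had 5.18 ± 0.253 and 3.76 ± 0.676 RPM and the outer one had 5.81 ± 0.987 and 12.9 ± 2.83 RPM.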

How the data were processed

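CAGE libraries of total RNA were made from whole cells, 3 per strain, per the labels. The submitters' processing notes name build ASM294v2 and the tools CASAVA (1.6), Bowtie (0.12.7) and bedtools (2.15.0). The deposited values are RPM, scaled by the authors to each library's total (they write TPM, with T for tags), for the same clusters in every library. A pooled signal per cluster, also deposited, was not tested. Of the values above 0, 99.7% to 99.8% were multiples of 1 tag's value (tolerance 0.02 tags), which gave tag counts. Counting error at 5 RPM was 9.28% to 12.6% per library, and intervals cover counting error only (no molecular identifiers are mentioned in the labels, so a molecule may have been read more than once).

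Positions are as deposited, counted from 1. The annotation (ASM294v3) has the same chromosome III length, and the pyrimidine-purine check tested the match. Features with a mean of at least 1 RPM were tested by limma (3.58.1, trended empirical Bayes) on log2(RPM + 0.5), two-sided, with Benjamini-Hochberg adjustment over all clusters, genes or bins. A gene's value sums the clusters of its promoter window, and where windows overlap a cluster counts for the nearest annotated start. In simulated data 200 of 11250 clusters were changed, with the same dispersion for all, and 76.0% of those changed 2-fold were called. The real clusters differ in their spread, and far more of them were called, so this share need not hold for them. Single ratios were tested with exact permutation over libraries. Alternatives were DESeq2 (1.42.0) and edgeR (4.0.16) on the tag counts, by which 2025 and 1856 genes were called against 1872 by limma, other scalings, filters and pseudocounts, a block for the replicate number, and the omission of single libraries.

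Named clusters were, per end, up to 5 higher and 5 lower of largest change without overlap, the 3 of highest mean and the 3 nearest the end. Named genes were up to 8 coding genes per direction, the 3 highest and the 6 nearest, and up to 3 non-coding genes per direction. Others, such as second starts of a gene, were added after seeing values. The regions, lists and rules were chosen with earlier results of these data known.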

Additional observations from a re-analysis of the deposited data

How the results depend on the processing

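Log2 fold changes are relative to library totals: the median of all genes was 0.13, and -0.02 with TMM and -0.01 with median-of-ratios scaling. Depth limits calls of low starts. Lowering the filter to 0.2 RPM or removing it raised the higher clusters from 16 to 49 and 69 (left) and from 38 to 87 and 113 (right). The lower clusters of the left end went from 12 to 21 (0.2 RPM), and the higher non-coding RNA genes from 6 to 15 and 20. The clusters tested at both ends together increased too, from 148 to 355 and 1205. Of these, 10.7% (0.2 RPM) and 2.90% (no filter) fell, against 5.83% and 1.74% of all tested in the series. With DESeq2 and edgeR, lower clusters numbered 20 and 22 (left) and 21 and 22 (right, 13 in limma), and lower bins of other tags 2 and 2. In those tools 0 promoter bins rose and 8 fell (limma, 4 and 4). TMM and median-of-ratios scaling gave 2 higher promoter bins and 1 lower bin of other tags. All 4 of these gave 1 higher and 9 lower coding genes at the left end and 1 higher silencing gene. DESeq2 also gave 4 higher and 10 lower coding genes at the right end, 4 lower non-coding RNA genes and 8 lower silencing genes.

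Within 50 kb of the ends, 2 and 4 clusters rose and fell on the left and 10 and 6 on the right. The clusters tested there were 5 in promoters and 6 outside on the left, and 12 and 15 on the right. Coding genes numbered 0 and 1 on the left and 1 and 3 on the right. Higher features were 2 non-coding RNA genes, 1 promoter bin and 2 bins of other tags. Tested promoter bins there were 2 on the left, and on the right 1 under 30 kb and 2 from 30 to 50 kb. Tested bins of other tags were 2 on the left, and on the right 2 under 30 kb and 2 from 30 to 50 kb. The numbers of genes tested within 50 kb are not given, so the gene counts cannot be set against the series shares. In the series 36.9% of tested clusters rose and 9.36% fell, as did 16.9% and 9.65% of coding genes. The series shares that rose were 62.6% of non-coding RNA genes, 24.7% of promoter bins and 85.3% of bins of other tags. The relative antisense level of the left end was -0.38 within 50 kb and -0.35 without its highest cluster, against 0.31.

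By replicate number no pairing of the libraries was seen: same-numbered ones correlated at -0.21, -0.21 and -0.335. These values are not correlations of the levels themselves, for which r was 0.886 to 0.903 in mixed pairs. For each library the values with the 3 libraries of the other strain nearly cancel. Positive and negative ones thus occur together, and their signs alone cannot decide which libraries pair. Wild-type libraries 1, 2 and 3 correlated at 0.426, 0.386 and 0.41 with mutant libraries 2, 3 and 1. The remaining pairs were at -0.197, -0.136 and -0.151. The replicate block joins libraries of the same number, and a block of the positively correlated pairs was not fitted. With a replicate block 7 left-end clusters fell, as did 2 left-end coding genes, 1 non-coding RNA gene and 2 promoter bins, and 1 silencing gene rose and 2 fell. Leaving out 1 library gave 6 to 11 lower clusters on the left (6 without mutant library 2 or 3, 7 without wild-type library 1) and 6 to 14 on the right (6, 7 and 8 without wild-type library 3, mutant library 3 and wild-type library 1). It gave 1 to 2 higher coding genes on the left (1 without any library but wild-type library 2) and 2 to 6 lower ones there (2 without mutant library 3, 3 without mutant library 2 or any wild-type library), 3 to 8 lower ones on the right (3 without wild-type library 1), 1 to 3 lower non-coding RNA genes (1 without mutant library 1 or 3 or wild-type library 1) and 2 to 5 lower promoter bins (2 without mutant library 1). Silencing genes numbered 1 to 4 higher (1 without mutant or wild-type library 1, 2 without mutant library 2 or 3 or wild-type library 2) and 2 to 3 lower (2 without mutant library 1 or 3 or wild-type library 1). The main start of qcr2 (-0.02) turned to 0.038, 0.065 and 0.089 without mutant library 2, mutant library 3 and wild-type library 3 (range -0.16 to 0.089), and its gene sum (-0.0042) to 0.052, 0.079 and 0.10 (range -0.14 to 0.10). The nic1 gene turned from 0.11 to -0.057 (DESeq2), -0.063 (edgeR), -0.030 (TMM), -0.025 (median of ratios), -0.10 (without mutant library 2) and -0.16 (without wild-type library 2; range -0.16 to 0.29). The cause of these shifts was not tested.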
